A study of Mus musculus with 2 samples.

Results

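The Bcl2 family genes described here are 10 genes taken by name from the gene tables of both matrices, out of 27998 gene rows: Bcl2, Bcl2l1, Mcl1, Bcl2a1b, Bcl2a1d, Bax, Bak1, Bcl2l11, Bid and Bad. All 10 were detected in the marrow library and 9 in the Car1-GFP library, where Bcl2a1d had 0 UMIs. The Car1-GFP library came from bone marrow cells that carried CD45 and a Car1-GFP reporter, sorted from 3 pooled naïve reporter mice on a C57BL/6 background. The marrow library came from CD45+ CD3- Ly6G- bone marrow cells of 3 pooled naïve C57BL/6 mice. Neither the age nor the sex of the mice was used here, and the mice were untreated in both groups. Reporter strain, sort and library change together between the groups, so their parts in a difference cannot be told apart. Each group is a single library, so no replicate spread exists. No test was possible, and every interval below is a 95% interval for counting error only.

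BCL2 family proteins decide at the mitochondrial outer membrane whether a cell enters intrinsic apoptosis. The anti-apoptotic members (Bcl2, Bcl2l1, which encodes BCL-XL, Mcl1, and the A1 copies Bcl2a1b and Bcl2a1d) hold the pore-forming effectors Bax and Bak1 in check. The BH3-only members Bcl2l11 (BIM), Bid and Bad respond to stress or loss of growth factor and neutralise the anti-apoptotic proteins or activate the effectors. In the red cell lineage, BCL-XL is known as the survival protein of late erythroblasts downstream of erythropoietin and GATA1. MCL1 and BCL2 are known for the survival of stem cells and lymphocytes, and A1 for that of myeloid and dendritic cells.

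Filtering kept 2400 of 2522 barcodes in the Car1-GFP library, with a median of 15512.5 UMIs per cell, and 6268 of 6458 in the marrow library, with a median of 1031. The libraries held 42795219 and 8303633 UMIs in the Car1-GFP and marrow cells kept. They shared 14 cell barcodes. Levels are UMI counts-per-million (CPM) over summed cells. Car1 stood at 594 CPM in Car1-GFP cells against 102 CPM in marrow cells. Klf1, an erythroid transcription factor, stood at 344 CPM in Car1-GFP cells against 31.6 CPM in marrow cells, and Ptprc, which encodes CD45, at 12.97 CPM in Car1-GFP cells against 303 CPM in marrow cells. Of 12 Car1-GFP clusters, 8 with 1322 cells carried an erythroid name by their markers, and 4 with 1078 cells stayed unnamed. Unnamed does not mean not erythroid. Clusters 0, 2 and 3 (550, 265 and 252 cells) scored highest for erythroid progenitor markers, with 8 raised over marrow cells. They stayed unnamed because markers of another class were among their leading genes. In the marrow library, Ly6g still had 706 UMIs although the gate removed Ly6G+ cells, and Cd3e had 14.

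The sequences of the A1 pair are shown first because they limit what their counts can say. Bcl2a1b and Bcl2a1d have coding sequences of 516 bases each that differ at 6 positions (98.8% identical). The first 120 coding bases of each, from the GENCODE M21 transcripts on mm10, lie on chromosome 9 at chr9:89199360-89199479 (plus strand) and chr9:88731600-88731719 (minus strand). Capitals mark the 3 differing bases.

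Bcl2a1b: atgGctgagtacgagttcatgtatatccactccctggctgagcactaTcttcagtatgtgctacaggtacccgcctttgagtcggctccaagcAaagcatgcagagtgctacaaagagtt

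Bcl2a1d: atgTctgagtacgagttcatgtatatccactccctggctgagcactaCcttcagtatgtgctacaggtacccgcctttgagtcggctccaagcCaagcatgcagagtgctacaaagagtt

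The reads of this assay come from the 3′ end and are 98 bases long. Of the 98-base windows in the last 500 bases of the transcript, 34.2% in Bcl2a1b and 58.8% in Bcl2a1d also occur whole in another A1 transcript. The split of counts between the A1 copies is therefore uncertain.

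Promoter windows (250 bases before to 50 after a start site) were taken from RefSeq on GRCm38.p6, where all 10 genes matched, with 14 windows in all. Each was searched on both strands for the word AGATAA, its relative AGATAG, the word TGATAA or its relative TGATAG, letters that the erythroid factor GATA1 is known to bind. At least 1 match was found in 3 of the 14 windows, belonging to 3 genes (Bcl2l1, Bcl2a1b and Bid), against 29.8% of all 32851 windows. The Bcl2l1 window is shown because it held the most matches, and the Bcl2 window as one without. The capitals mark GATA words on the strand shown.

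Bcl2l1, chr2:152828440-152828739, minus strand: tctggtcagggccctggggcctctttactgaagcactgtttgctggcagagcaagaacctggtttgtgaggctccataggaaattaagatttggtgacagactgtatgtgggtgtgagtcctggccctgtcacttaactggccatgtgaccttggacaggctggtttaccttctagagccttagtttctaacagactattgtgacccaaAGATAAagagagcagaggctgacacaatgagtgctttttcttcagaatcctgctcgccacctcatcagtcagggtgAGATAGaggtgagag

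Bcl2, chr1:106714241-106714540, minus strand: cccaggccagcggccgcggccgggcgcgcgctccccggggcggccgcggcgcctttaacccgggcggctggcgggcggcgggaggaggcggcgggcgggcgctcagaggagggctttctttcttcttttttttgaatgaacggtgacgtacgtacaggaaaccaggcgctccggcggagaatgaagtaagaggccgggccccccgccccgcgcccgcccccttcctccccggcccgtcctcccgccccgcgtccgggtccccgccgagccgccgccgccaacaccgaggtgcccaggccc

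The Bcl2l1 window holds 2 matches and the Bcl2 window 0. The other windows of Bcl2l1 hold none. Of the genes described along globin share below, Bcl2l11, which was also higher there, has 0 matches, and Bid, which stayed level, has 1. A match is a description of these letters and not a bound site.

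Set against the whole marrow library, the Car1-GFP library held less of the anti-apoptotic genes, while the effectors were above the marrow level by less than 2-fold. Among the 10 members, 4 were at least 2-fold lower in the Car1-GFP library, all anti-apoptotic, where 32.7% of 12076 tested genes were. A count of 4 in 10 is near that share. None was at least 2-fold higher, where 22.5% of tested genes were. The median log2 ratio was -0.79 over 9 members (-0.88 with Bcl2a1d at its bound) and -0.23 over all tested genes.

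Bcl2 stood at 6.75 CPM in Car1-GFP cells and 31.2 CPM in the whole marrow, which is 4.62-fold lower (log2 -2.21, interval -2.45 to -1.96). Mcl1 stood at 25.0 CPM in Car1-GFP cells and 115 CPM in the whole marrow, 4.61-fold lower (log2 -2.20, interval -2.33 to -2.08). The intervals of the libraries did not overlap for either gene. With every cell weighted equally, the log2 ratios were -1.70 for Bcl2 and -2.39 for Mcl1, both outside the log2 intervals above. Bcl2a1b had 7 UMIs (0.164 CPM) in Car1-GFP cells and 36 UMIs (4.34 CPM) in the whole marrow. Bcl2a1d had 0 UMIs in the Car1-GFP library, against 26 UMIs (3.13 CPM) in the whole marrow, and was at least 44.7-fold lower with 3 counts as the floor of the Car1-GFP library. Bcl2l1 stayed just inside 2-fold, at 4.60 CPM in Car1-GFP cells and 9.03 CPM in the whole marrow (log2 -0.97). Over all deposited barcodes its log2 ratio was -1.03, which made 5 members lower.

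The effectors lay on the other side. Bax stood at 202 CPM in Car1-GFP cells and 115 CPM in the whole marrow (log2 0.82, interval 0.72 to 0.91), and Bak1 at 65.8 CPM in Car1-GFP cells and 39.6 CPM in the whole marrow (log2 0.73). Among BH3-only genes, Bcl2l11 stood at 9.21 CPM in Car1-GFP cells and 15.9 CPM in the whole marrow (log2 -0.79). Bid and Bad were close between the libraries, with log2 ratios of 0.24 and 0.40. Scaling by edgeR TMM or DESeq2 size factors shifted every log2 ratio up by 0.39 or 0.38. Under both, Bax (1.21 and 1.20) and Bak1 (1.12 under both) were at least 2-fold higher, and the same 4 genes stayed lower.

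**Figure D1:**
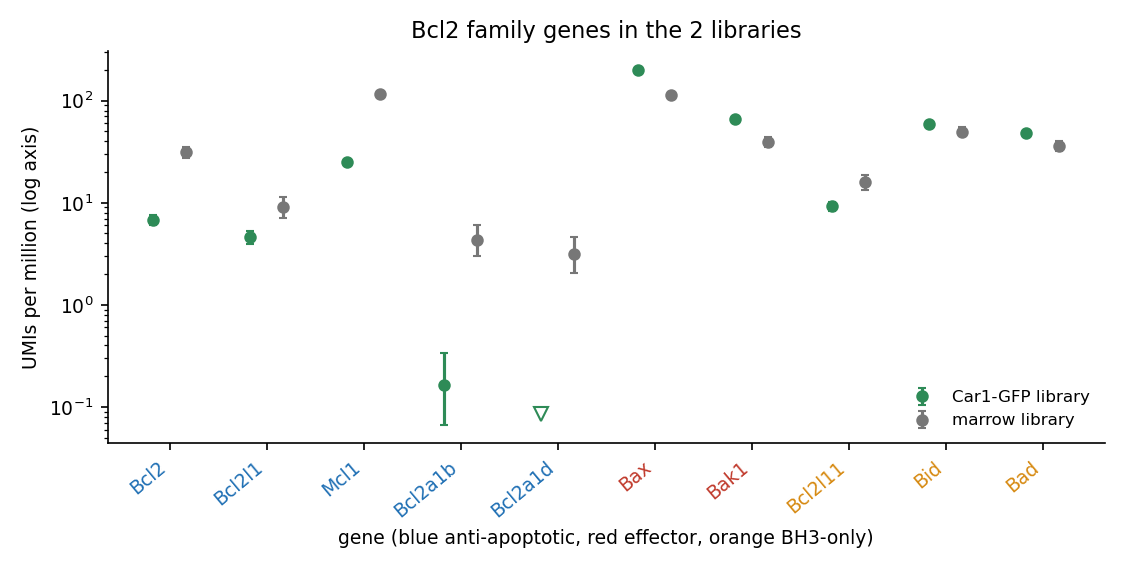
Each point is a gene's summed level in 1 library, in CPM on a log axis, with its 95% counting interval; an open triangle is the upper limit at 0 UMIs. Bcl2, Mcl1 and the A1 copies lie below the marrow point in the Car1-GFP library, and Bax (202 against 115 CPM) and Bak1 lie above it.

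The make-up of the family differed in the same way. Anti-apoptotic transcripts took 8.68% of the 17975 family UMIs in the Car1-GFP library (exact binomial interval 8.28 to 9.11%), against 38.8% of 3479 family UMIs in the marrow library (37.2 to 40.5%). In the marrow late erythroid-like cells the share was 22.8% of 329 UMIs, and in the 9 other classes of at least 50 cells it lay between 28.6% and 66.0%. These are shares of 3′ tags and are not scaled by gene length. A sum over a library cannot tell fewer cells of a type from less RNA per cell, so the members were followed through cell classes next.

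Marrow cells were clustered without the apoptosis genes and named by fixed markers, which gave 10 classes of at least 50 cells. The late erythroid-like class also held less mature cells: 116 of its 271 cells had under 0.1% globin, and at resolution 2 its counterparts were 193 cells with the erythroid progenitor name and 79 with the late erythroid name. The leading genes of the stem and multipotent progenitor-like class included the megakaryocyte marker Pf4 and the lymphoid-primed marker Dntt, beside the stem markers Meis1 and Hlf. S100a8, a neutrophil transcript, stood between 8722 and 32592 CPM in the 9 classes other than neutrophil-like cells. What RNA from outside the cell adds to levels that rest on few UMIs was not tested. Over these classes each member was compared with all other marrow cells, giving 100 member-class pairs. A 2-fold higher level was found in 13 pairs, where 11.9% of all 104290 gene-class pairs had one, and a 2-fold lower level in 23, where 23.1% had one. Of the 23 lower pairs, 11 rest on 0 UMIs in the class. With the counting interval also required to lie away from no difference, 10 pairs were higher (7.73% of all pairs) and 11 lower (10.6% of all pairs). The shares of members called were therefore near those of all genes. By role, all 13 higher pairs belonged to anti-apoptotic members, 3 of them with under 5 UMIs in the class. Of the 23 lower pairs, 19 were also of anti-apoptotic members, 16 of these with under 5 UMIs. The A1 copies had only 36 (Bcl2a1b) and 26 (Bcl2a1d) marrow UMIs. Bcl2a1b was called higher in 3 classes and lower in 7, and Bcl2a1d higher in 3 and lower in 6. The higher call of Bcl2a1d in B lineage-like cells rests on 1 UMI. The split by role therefore rests in part on low counts. Bak1, Bid and Bad stayed within 2-fold in every class.

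Bcl2 was at least 2-fold higher in NK and innate lymphoid-like, stem-like and plasmacytoid dendritic-like cells than in all other marrow cells, and at least 2-fold lower in neutrophil-like, late erythroid-like, monocyte-like and B lineage-like cells. Its level was 229 CPM in NK and innate lymphoid-like cells (39 UMIs, interval 163 to 313), which was 8.48-fold above all other marrow cells, where 11.6% of genes were at least 2-fold higher. The next levels were 105 CPM in stem and multipotent progenitor-like cells (79.9 to 135) and 104 CPM in plasmacytoid dendritic-like cells (77.7 to 136), which did not differ beyond their intervals. Both lay below the NK interval, and their log2 ratios to other cells were 2.02 in stem-like cells, where 15.9% of genes were at least 2-fold higher, and 1.97 in plasmacytoid-like cells, where 14.2% were. Basophil/mast-like (60.2 CPM), conventional dendritic-like (46.8 CPM) and granulocyte-monocyte progenitor-like cells (35.1 CPM) followed with overlapping intervals.

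At the low end, Bcl2 stood at 14.1 CPM in B lineage-like cells (2 UMIs) and 9.74 CPM in monocyte-like cells. It stood at 7.22 CPM in late erythroid-like cells (6 UMIs) and 3.54 CPM in neutrophil-like cells (8 UMIs). The B lineage-like log2 ratio was -1.16, with an interval of -4.21 to 0.71 that included no difference. The monocyte-like and late erythroid-like log2 ratios were -1.94 and -2.23, where 12.6% and 24.9% of genes in those classes were at least 2-fold lower. The neutrophil-like level was 11.7-fold below other cells (log2 -3.55, interval -4.78 to -2.55). In that class 46.7% of genes were at least 2-fold lower, with a median log2 ratio of -0.92, and S100a8 alone stood at 201084 CPM. The plasmacytoid result depended on the clustering, with a log2 ratio of 0.56 at a finer resolution (2 in place of 1). At resolution 2, 202 cells formed a cluster with the lymphoid-primed progenitor name, which no cluster had at resolution 1. Its leading genes included Dntt, Sox4 and Bcl2 itself. Among cells with at least 1000 UMIs, 57 NK-like cells remained and their log2 ratio for Bcl2 was 1.64.

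Mcl1 had another order. Conventional dendritic-like cells stood highest at 296 CPM (38 UMIs, interval 210 to 407), followed by monocyte-like cells at 207 CPM (187 to 229) and B lineage-like cells at 191 CPM (126 to 277), with overlapping intervals. The log2 ratios to other cells were 1.40 in dendritic-like cells, where 14.6% of genes were at least 2-fold higher, and 1.23 in monocyte-like cells, where 10.2% were. Monocyte-like cells held 40.1% of all marrow Mcl1 UMIs. The remaining 7 classes lay between 60.2 and 106 CPM. Among cells with at least 1000 UMIs, the Mcl1 log2 ratio was 0.22 in the cluster with the conventional dendritic name. The leading genes of that cluster included the plasmacytoid genes Siglech and Cox6a2. In monocyte-like cells it was 0.998 at the finer resolution, just inside 2-fold, and 1.01 among cells with at least 1000 UMIs.

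Most UMIs of the A1 copies were in conventional dendritic-like and monocyte-like cells. Of 36 Bcl2a1b UMIs, 12 were in conventional dendritic-like cells (93.6 CPM, 31.9-fold above other cells) and 14 in monocyte-like cells (7.58 CPM). Of 26 Bcl2a1d UMIs, 11 were in conventional dendritic-like cells (85.8 CPM, 46.8-fold above other cells) and 11 in monocyte-like cells (5.95 CPM). The other classes held 4 UMIs or fewer of either copy. Among these, a macrophage-like class of 26 cells, under the minimum of 50, had like levels from few UMIs. It held 3 Bcl2a1b UMIs (88.4 CPM, interval 18.2 to 258) and 2 Bcl2a1d UMIs (58.9 CPM, interval 7.14 to 213). Both intervals overlapped those of conventional dendritic-like cells. Late erythroid-like, stem-like, plasmacytoid-like and basophil/mast-like cells had 0 UMIs of both. With the 1000-UMI minimum the Bcl2a1b log2 ratio in the dendritic-named cluster was 2.90 rather than 4.99.

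Bcl2l1 had few UMIs in every marrow class. Its highest level was 35.3 CPM in B lineage-like cells, from 5 UMIs (interval 11.46 to 82.3), where 13.2% of genes were at least 2-fold higher. The lowest was 1.96 CPM in plasmacytoid dendritic-like cells, from 1 UMI. Late erythroid-like cells stood at 4.81 CPM (4 UMIs, interval 1.31 to 12.3), next to stem-like cells at 3.56 CPM. Neighbours in this order all had overlapping intervals.

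Over the summed UMIs of Bcl2, Bcl2l1 and Mcl1, the share held by Bcl2 varied between the classes. It was 63.9% in NK and innate lymphoid-like cells (interval 50.6 to 75.8%), 53.6% in stem-like cells and 53.5% in plasmacytoid dendritic-like cells. It was 30.7% in granulocyte-monocyte progenitor-like cells, 8.0% in late erythroid-like cells (2.99 to 16.6%), 4.34% in monocyte-like cells and 3.45% in neutrophil-like cells (1.5 to 6.68%). The share was 44.4% in basophil/mast-like cells (18 UMIs, interval 21.5 to 69.2%), 13.3% in conventional dendritic-like cells and 5.88% in B lineage-like cells. The basophil/mast-like interval overlapped those of the NK, stem-like, plasmacytoid and granulocyte-monocyte progenitor-like cells. In the Car1-GFP library the share was 18.6%.

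The effectors and BH3-only genes were more even. Bax lay between 75.2 and 182 CPM in 9 classes. It stood at 42.0 CPM in neutrophil-like cells (95 UMIs), a log2 ratio of -1.76 (interval -2.08 to -1.45), where 46.7% of genes were at least 2-fold lower. Its highest levels, 182 CPM in monocyte-like cells and 164 CPM in both conventional dendritic-like and late erythroid-like cells, had overlapping intervals. Bak1 ranged from 21.5 CPM in plasmacytoid dendritic-like to 52.7 CPM in basophil/mast-like cells. Bid was highest in granulocyte-monocyte progenitor-like cells at 76.1 CPM (63.4 to 90.4) and monocyte-like cells at 68.7 CPM, and lay between 29.4 and 45.1 CPM in the other 8 classes. Bad ranged from 21.2 CPM in B lineage-like to 50.9 CPM in monocyte-like cells.

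Bcl2l11 was the BH3-only gene that varied most. It stood at 29.4 CPM in NK-like cells (5 UMIs), 28.9 CPM in late erythroid-like cells (24 UMIs, interval 18.5 to 43.0) and 28.2 CPM in B lineage-like cells (4 UMIs). The late erythroid-like log2 ratio of 0.999 fell just short of 2-fold. At the low end were neutrophil-like cells at 7.96 CPM (log2 -1.25) and conventional dendritic-like cells at 7.80 CPM (1 UMI, log2 -1.04, interval -6.35 to 1.46). In neutrophil-like cells the median log2 ratio over all tested genes was -0.92. Plasmacytoid dendritic-like cells were lowest at 3.92 CPM (2 UMIs, log2 -2.09, interval -5.15 to -0.21).

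**Figure D2:**
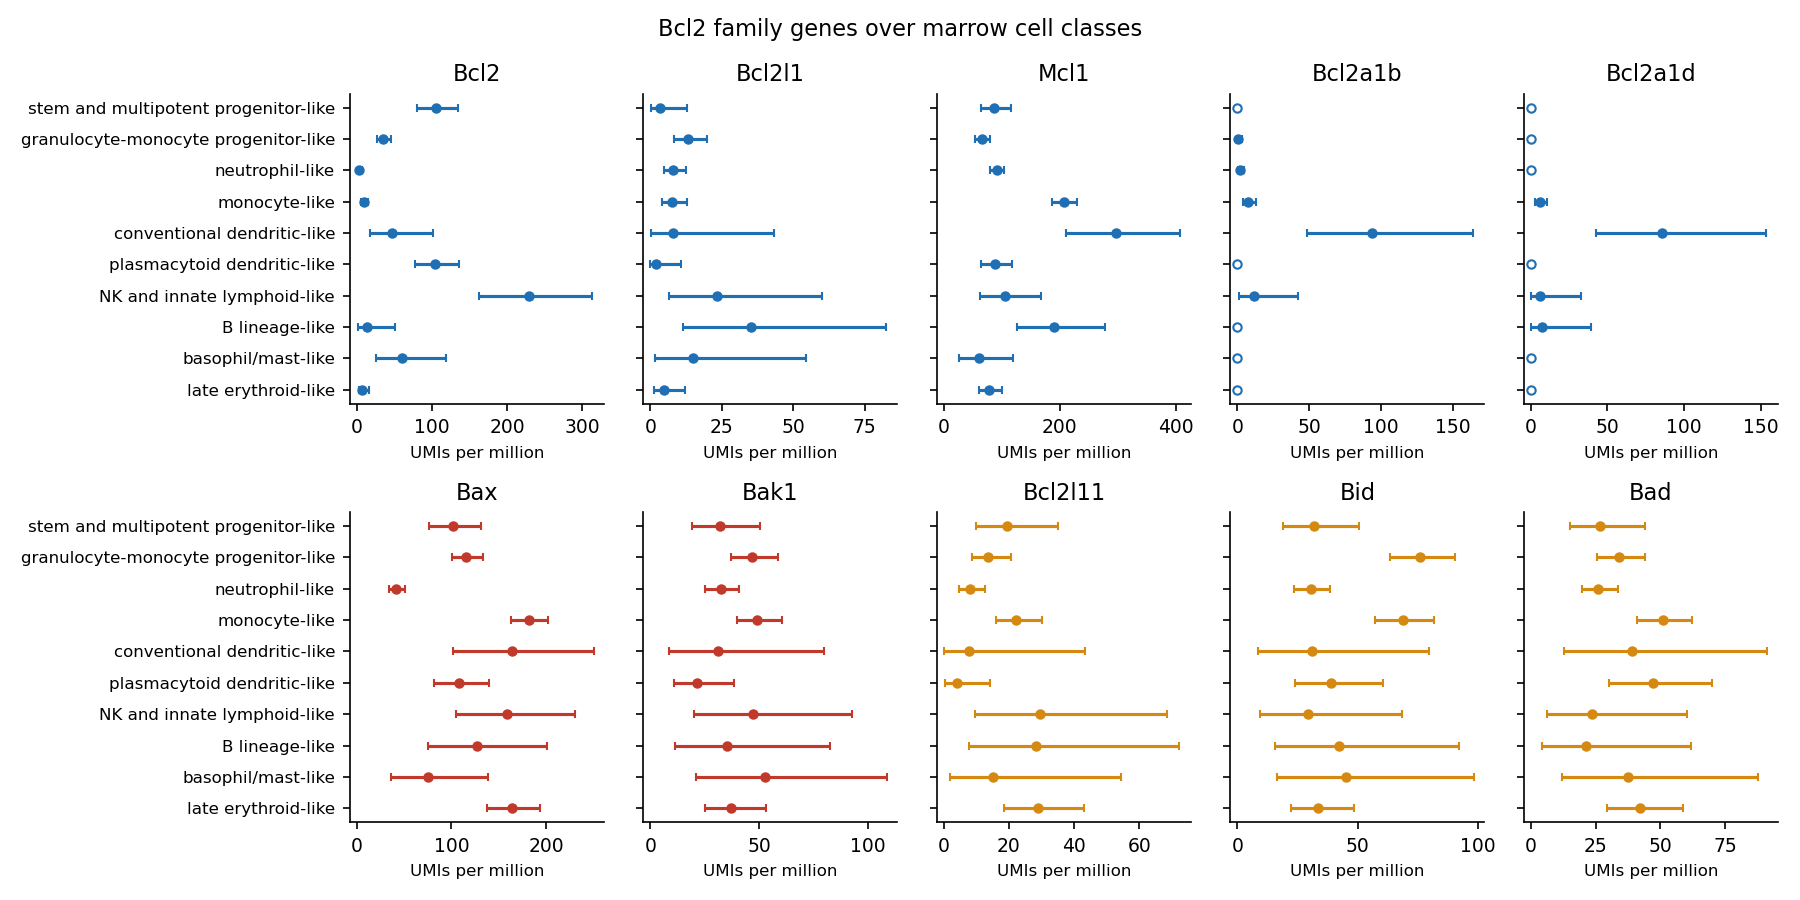
Each panel gives 1 gene's level (CPM, with 95% counting interval) in 10 marrow cell classes; open circles are 0 UMIs, and the horizontal scale differs between panels. Bcl2 peaks in NK and innate lymphoid-like cells at 229 CPM, Mcl1 and the A1 copies in conventional dendritic-like cells, and Bax is lowest in neutrophil-like cells.

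The 3 classes made of several large clusters were split after their values were seen, with levels over non-globin UMIs. Within monocyte-like cells, Mcl1 stood at 322 CPM in the Gngt2 and Clec4a3 cluster and 154 CPM in the Fn1 and F13a1 cluster (log2 1.07, interval 0.77 to 1.36). It was the only member called higher there, where 6.58% of 7085 genes were, and none was called lower, where 10.4% were. Under the minimum for a call were Bcl2 (log2 -0.63), Bcl2l1 (-0.25), Bcl2a1b (1.07) and Bcl2a1d (2.07), all with intervals that included no difference. Bax stood at 183 CPM in the Gngt2 and Clec4a3 cluster and 181 CPM in the Fn1 and F13a1 cluster.

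Within granulocyte-monocyte progenitor-like cells, Bcl2 had 0 UMIs in the Fcnb cluster, against 59 UMIs (42.4 CPM) in the Mpo and Ctsg cluster, and was at least 4.12-fold lower. Bcl2 was the only member called lower, where 23.8% of 6708 genes were. The A1 copies were under the minimum for a call. Bcl2l1 stood at 30.9 CPM (9 UMIs) in the Fcnb cluster and 9.34 CPM in the Mpo and Ctsg cluster (log2 1.73, interval 0.32 to 3.06). Bcl2l11 stood at 30.9 CPM (9 UMIs) in the Fcnb cluster and 10.1 CPM in the Mpo and Ctsg cluster (log2 1.62, interval 0.23 to 2.93). These 2 members were called higher, where 5.64% of genes were. The progenitor name of the Fcnb cluster depended on the clustering. A cluster led by Fcnb carried the neutrophil name with another seed (996 cells) and at resolution 0.5 (1586 cells). At resolution 2 one carried the progenitor name (232 cells). Whether these differences lie within progenitors or between progenitors and early neutrophils was not tested. Within neutrophil-like cells no member with at least 20 UMIs reached 2-fold between the Mmp8 and Retnlg cluster and the Ngp and Camp cluster, where 5.98% of 6167 genes were higher and 15.8% lower. Mcl1 came nearest, at 133 CPM in the Mmp8 and Retnlg cluster and 77.2 CPM in the Ngp and Camp cluster.

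The genes with the most similar pattern over the 10 classes were listed for each member with at least 200 marrow UMIs, by Pearson correlation of log2(CPM + 10) among 4656 genes. The classes share 1 library and differ in depth, so these are descriptions. For Bcl2 they were Runx3 (r = 0.95), Ifi47 (0.88) and Rnf168 (0.87), and for Mcl1 they were Pid1 (0.94), Clec4a1 (0.92) and Cd302 (0.92). For Bax they were Pttg1 (0.95), Snx3 (0.93) and Tmem234 (0.93), and for Bid they were Ndufb3 (0.96), Uqcrb (0.89) and Gstm1 (0.86). For Bad they were Evi5 (0.92), Map3k11 (0.92) and Timm10b (0.88). Bak1 had no gene above 0.79, with Ppp2r2d and Mapk6 at 0.79 and Stk16 at 0.78.

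The Car1-GFP cells were next ordered by the globin share of their UMIs, and levels were taken over non-globin UMIs. They were cut into 10 groups of 240 cells. Groups 1 to 8 spanned only 0.21 to 0.75% globin, group 9 reached 2.16%, and group 10 ran from 2.16 to 54.0% with a median of 4.34%. Kit, the stem cell factor receptor, stood at 12.98 CPM in group 10 and 53.2 CPM in group 1. Alas2, the erythroid enzyme that starts heme synthesis, stood at 195 CPM in group 10 and 10.4 CPM in group 1. Groups 1 to 8 had no order by these genes: Kit lay between 43.3 and 53.2 CPM in them, Alas2 between 8.48 and 16.5 CPM, and Gata2, a progenitor transcription factor, between 52.1 and 80.8 CPM with the highest level in group 8. Only groups 9 and 10 were lower in Kit and Gata2 and higher in Alas2.

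Of the 8 members with at least 20 UMIs in the highest and lowest groups together, 2 were at least 2-fold higher in the highest group, where 7.19% of 8924 genes were, and 1 was lower, where 13.1% were. The anti-apoptotic genes parted: Bcl2l1 was higher, Bcl2 was lower and Mcl1 stayed level. The BH3-only gene Bcl2l11 was higher as well.

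Bcl2l1, in groups 1 (lowest globin) to 10 (highest), stood at 4.81, 3.68, 2.70, 2.03, 4.85, 4.62, 3.44, 5.50, 6.12 and 10.7 CPM. Group 10 (38 UMIs) exceeded group 1 (19 UMIs) by a log2 ratio of 1.16 (interval 0.33 to 2.03). Group 10 was highest, but its interval (7.59 to 14.7 CPM) overlapped those of groups 8 and 9, and without its cells of 10% or more globin the log2 ratio was 0.80. Bcl2l11 stood at 6.58, 6.198, 7.47, 6.31, 6.30, 10.2, 6.89, 10.99, 17.1 and 17.2 CPM. Its level was higher in groups 9 and 10, and the highest over the lowest gave a log2 ratio of 1.39 (interval 0.70 to 2.11).

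Bcl2 stood at 9.12, 10.1, 5.61, 8.14, 6.79, 6.23, 8.48, 7.11, 2.84 and 3.39 CPM in groups 1 to 10. Its step lay between groups 8 and 9, and the highest over the lowest gave a log2 ratio of -1.43 (interval -2.51 to -0.45). Within clusters with an erythroid name, regrouped by globin share, Bcl2 had 2 UMIs in the highest group and 14 in the lowest, under the minimum for a call. Clusters 0 to 2, described below, held 4 of the 240 cells in group 10 and 154 in group 1. The part of this cluster make-up in the Bcl2 step was not tested. Mcl1 varied between 21.7 and 29.3 CPM with no step, and its log2 ratio was -0.13. Bax lay between 189 and 224 CPM in groups 1 to 9 and at 174 CPM in group 10 (log2 -0.25). Bad lay between 46.9 and 57.2 CPM in groups 1 to 9 and at 35.8 CPM in group 10 (log2 -0.40). Bak1 (57.3 to 77.1 CPM) and Bid (56.6 to 65.1 CPM) showed no step. Bcl2a1b had 2 UMIs or fewer in every group and Bcl2a1d 0.

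**Figure D3:**
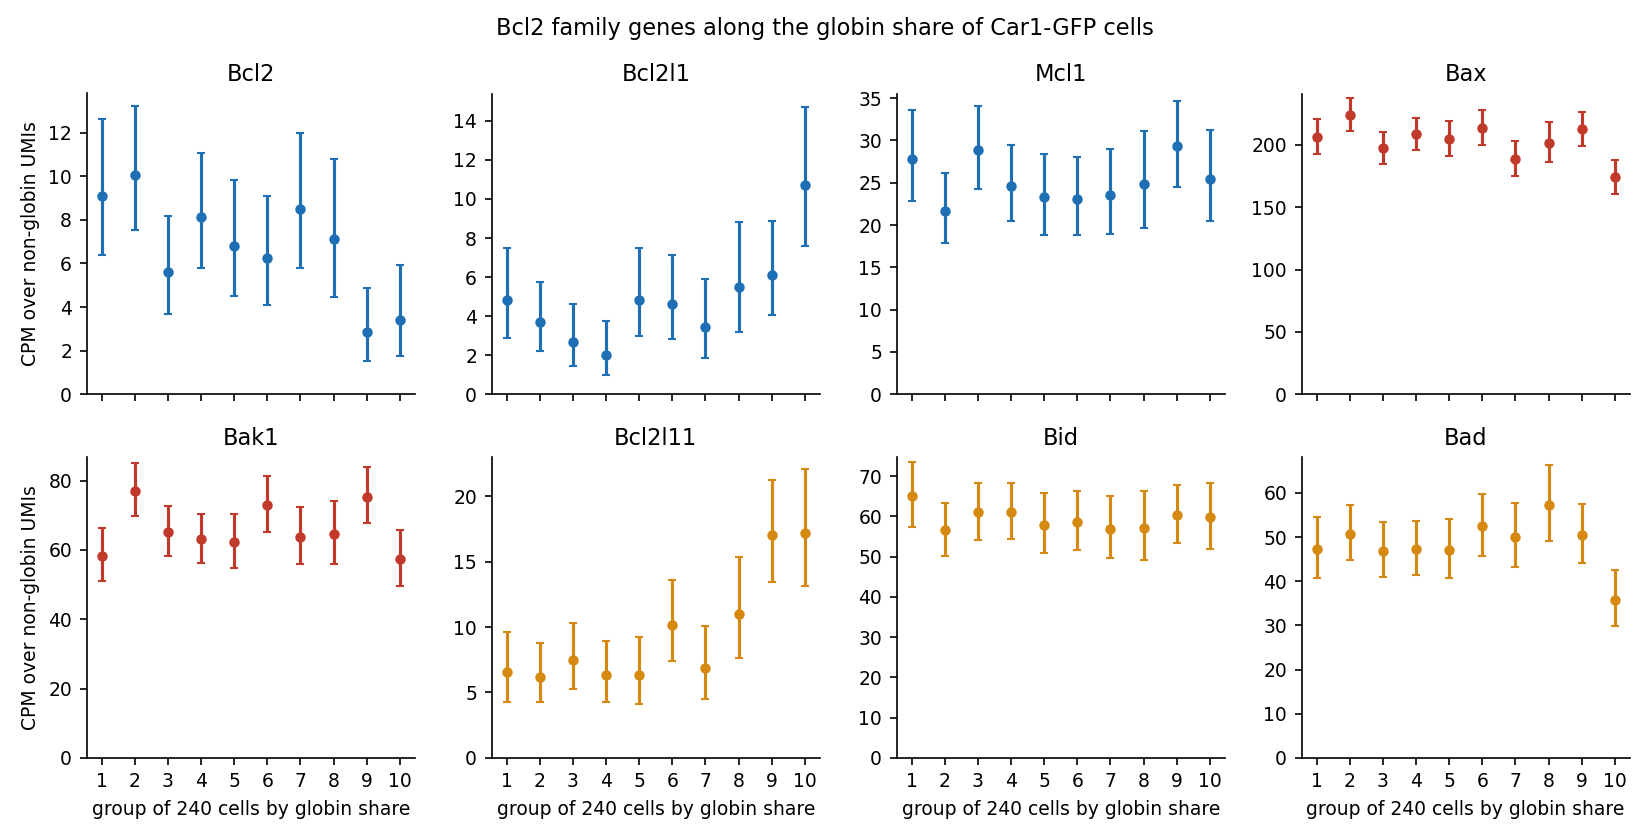
Each panel gives 1 gene's level (CPM over non-globin UMIs, with 95% counting interval) in 10 groups of 240 Car1-GFP cells ordered by globin share, lowest at the left. Bcl2 is lower in groups 9 and 10, Bcl2l11 is higher there, and Bcl2l1 reaches 10.7 CPM in group 10.

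Fixed ranges of globin share separated the most hemoglobinised cells, 46 cells with 10% or more globin and a median of 7450.5 UMIs. Bcl2l1 stood at 3.88 CPM at 0.3 to 1% globin (2020 cells), 7.53 CPM at 1 to 3% (196 cells), 7.80 CPM at 3 to 10% (136 cells) and 33.6 CPM at 10% or more. The last range held 11 UMIs and lay 8.64-fold above the first (log2 3.11, interval 2.08 to 3.996) and 4.30-fold above the 3 to 10% range (log2 2.11, interval 0.87 to 3.28). Of all genes, 10.2% were at least 2-fold higher at 10% or more globin than at 0.3 to 1%, and 27.4% were lower. Bcl2 stood at 7.57, 2.51, 3.21 and 3.05 CPM over the same ranges, the last from 1 UMI.

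Bcl2l11 stood at 7.96, 16.8, 17.9 and 9.16 CPM over the 4 ranges, the last from 3 UMIs, so its level was highest between 1 and 10% globin and the most globin-rich cells did not show it at this depth (log2 0.20 over the first range, interval -2.08 to 1.76). Over 1 to 10% globin it exceeded the first range by a log2 ratio of 1.11 (interval 0.77 to 1.44), where 4.59% of genes were at least 2-fold higher. Bcl2 was lower there (log2 -1.46, interval -2.26 to -0.75), where 13.9% of genes were at least 2-fold lower. Bcl2l1 fell just short of 2-fold at 0.97. The effectors and Bid stayed within 2-fold in each range.

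The clusters of the Car1-GFP library, made without the apoptosis genes, placed these levels by other genes. Bcl2 stood at 17.2 CPM (interval 13.3 to 21.9) in cluster 0, led by Vim, Plac8 and Gata2, at 13.6 CPM in the Pf4-led cluster 2 and at 11.4 CPM in cluster 1. It lay between 1.75 and 5.93 CPM in clusters 3 to 9 and reached 56.7 CPM (9 UMIs) in the 11 cells of cluster 11, led by the granulocyte genes S100a8 and Camp. In cluster 10 it had 1 UMI (14.35 CPM, interval 0.363 to 80.0). Bcl2l11 stood at 4.11 CPM in cluster 0 and 4.03 CPM in cluster 2, against 20.2 CPM in cluster 5, led by Rgcc and Sptb, 17.5 CPM in cluster 6, led by Slc4a1 and globin genes, and 15.3 CPM in cluster 8. Bcl2l1 was between 0 and 8.25 CPM in clusters 0 to 9. In cluster 10, 24 cells led by globin genes and Bpgm, it stood at 115 CPM from 8 UMIs (interval 49.6 to 226), beside Mcl1 at 86.1 CPM from 6 UMIs and Bcl2l11 at 0 UMIs, which allows up to 52.9 CPM.

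**Figure D4:**
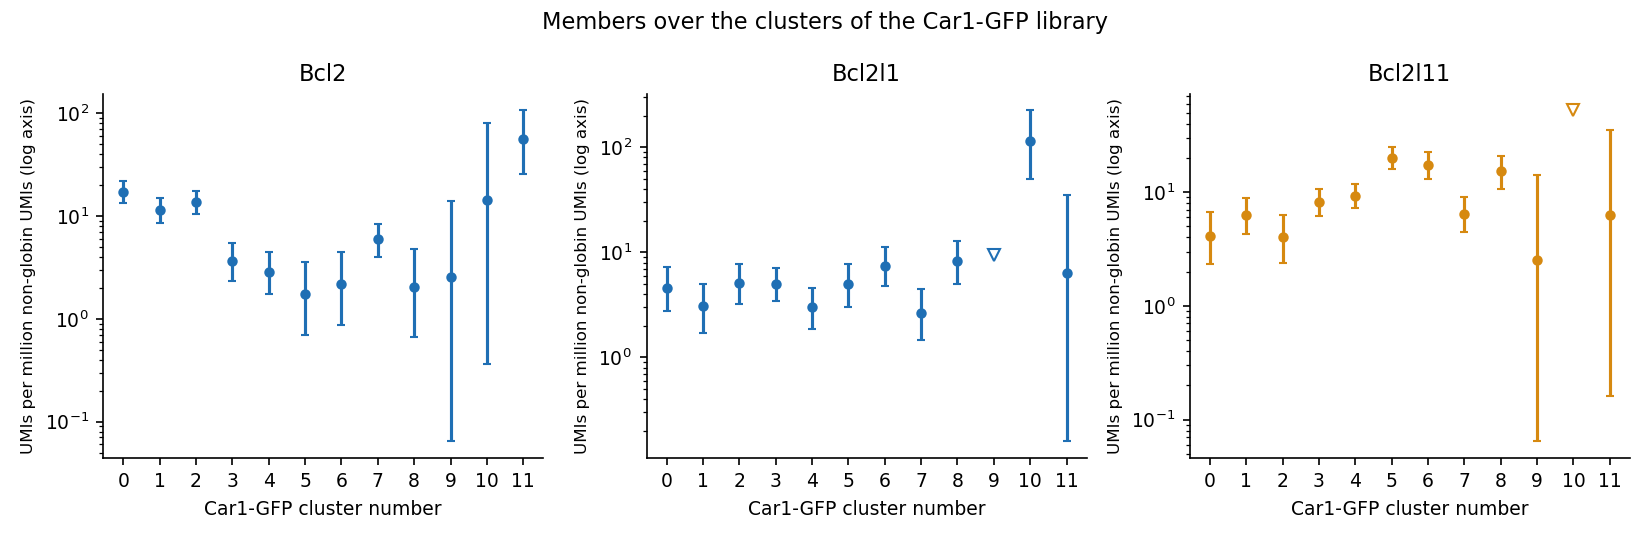
Levels of 3 members (CPM over non-globin UMIs on a log axis, with 95% counting intervals) over the 12 clusters of the Car1-GFP library; open triangles are upper limits at 0 UMIs. Bcl2 stands between 11.4 and 17.2 CPM in clusters 0 to 2 and at 56.7 CPM in cluster 11, its point in cluster 10 rests on 1 UMI, Bcl2l11 reaches 20.2 CPM in cluster 5, and Bcl2l1 reaches 115 CPM in the globin-led cluster 10.

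The marrow library held 271 late erythroid-like cells, a reference that the reporter gate did not select and in which many cells were poor in globin, as given above. They carried too few UMIs to repeat most of the globin contrast: when they were cut into 3 equal groups by globin share, only 4 members reached 20 UMIs over the highest and lowest group. Bak1 stood at 19.7 CPM (3 UMIs) in the highest group and 48.0 CPM (18 UMIs) in the lowest, a log2 ratio of -1.28 with an interval of -3.69 to 0.49. It was the 1 member called lower, where 14.4% of 3511 genes were, and 0 were called higher, where 12.9% were. Bax stood at 184 CPM in the highest group and 160 CPM in the lowest. Mcl1 stood at 78.8 CPM in the highest group and 93.3 CPM in the lowest. Bcl2l1 had 2 UMIs in the highest group and 1 in the lowest, so no difference could be detected at this depth.

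In the comparison with all marrow erythroid-like cells, 8 of the 10 members passed the minimum of 20 UMIs. Of these, 2 were at least 2-fold lower in the Car1-GFP library, where 27.7% of 11081 genes were, and 0 were higher, where 17.9% were. Mcl1 stood at 25.3 CPM in Car1-GFP cells and 79.8 CPM in marrow erythroid-like cells (log2 -1.66, interval -2.02 to -1.27). Bcl2l11 stood at 9.32 CPM in Car1-GFP cells and 29.4 CPM in marrow erythroid-like cells (log2 -1.66, interval -2.25 to -1.001). Bcl2 and Bcl2l1, which had log2 ratios of -2.21 and -0.97 against the whole marrow library, lay near 0 here, at -0.11 (interval -1.25 to 1.35) and -0.08 (interval -1.45 to 1.81). Bax had 0.29, Bak1 0.81, Bid 0.79 and Bad 0.18. S100a8 stood at 69.4 CPM in Car1-GFP cells and 8722 CPM in the marrow late erythroid-like cells. Its part in these differences was not tested.

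The lowest globin share among Car1-GFP cells was 0.21%, while 116 of the 271 marrow erythroid-like cells had under 0.1%. A like globin share may therefore not be a like stage, which was not tested. Among pairs with at least 20 UMIs, Car1-GFP cells at like globin share were lower in 5 member-range pairs, where 23.6% of 27335 gene-range pairs were. They were higher in 6, where 35.1% were. Of the 6 higher pairs, 5 rest on 0 marrow UMIs. With the interval required to lie away from no difference, 3 pairs were lower (10.8% of all pairs) and 1 higher (5.92%). Bcl2l11 at 0.3 to 1% globin stood at 7.96 CPM in Car1-GFP cells and 45.4 CPM (5 UMIs) in marrow cells (log2 -2.51). At 3 to 10% it stood at 17.9 CPM in Car1-GFP cells and 80.2 CPM (5 UMIs) in marrow cells (log2 -2.16). Mcl1 at 1 to 3% stood at 26.8 CPM in Car1-GFP cells and 118 CPM (7 UMIs) in marrow cells (log2 -2.13). The 1 higher pair was Bak1 at 1 to 3% globin, with 272 UMIs (68.2 CPM) in Car1-GFP cells and 0 UMIs in marrow cells, at least 1.35-fold higher. Among cells of 10% or more globin, Bcl2l1 had 11 UMIs (33.6 CPM) in Car1-GFP cells and 2 UMIs (65.5 CPM) in marrow cells, with an interval for the log2 ratio of -3.16 to 2.25. S100a8 lay between 7849 and 11856 CPM in these marrow ranges.

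**Figure D5:**
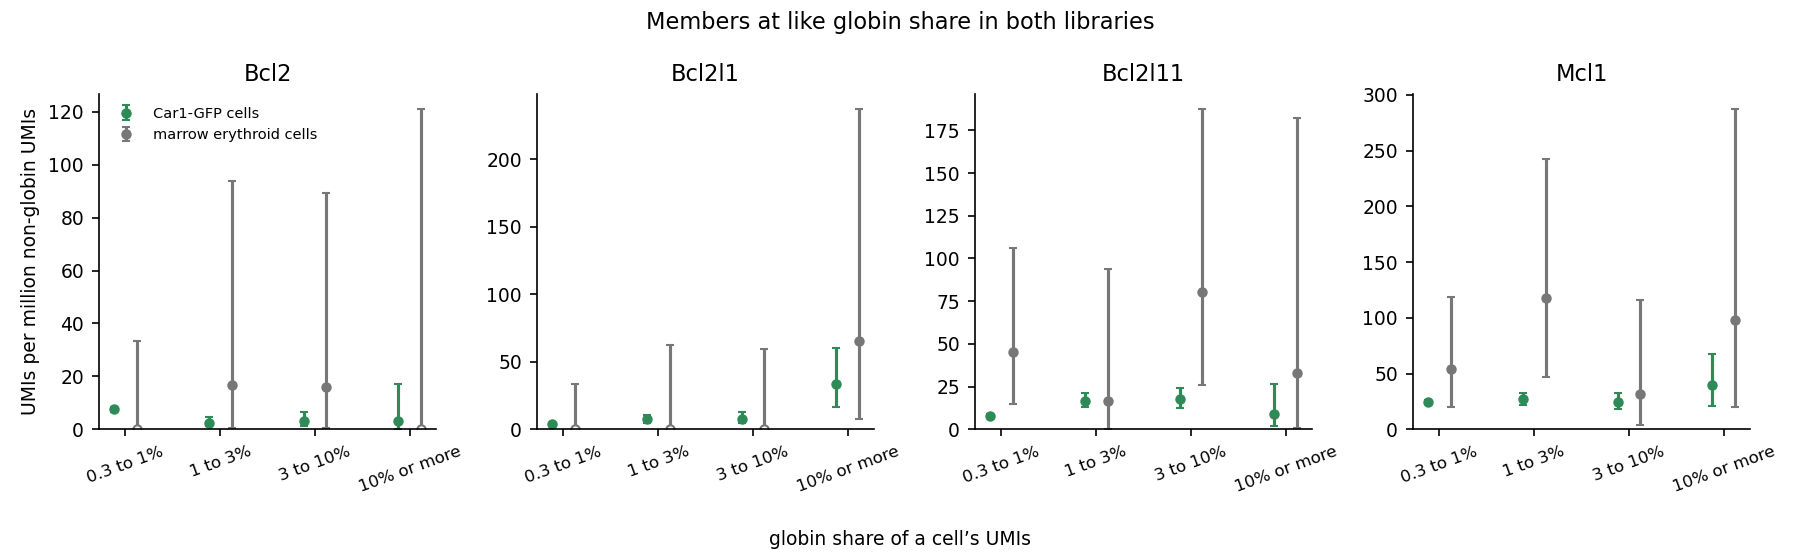
Levels of 4 members (CPM over non-globin UMIs, with 95% counting intervals) in ranges of globin share, in Car1-GFP cells (green, left of each pair) and marrow erythroid-like cells (grey); open points are 0 UMIs. The Bcl2l1 points at 10% or more globin rest on 11 UMIs in Car1-GFP cells and 2 UMIs in marrow cells.

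The rest of the apoptosis pathway was read from a list of 55 genes. In the library comparison 49 passed the minimum of 20 UMIs, 11 were at least 2-fold higher and 18 lower in the Car1-GFP library, beside the 22.5% and 32.7% of all genes given above. Their median log2 ratio was -0.49. Caspases and mitochondrial release factors were higher in 6 of 12 and lower in 2. Caspase inhibitors were lower in 3 of 4, death receptors and their adaptors in 4 of 7, and neither group held a higher gene.

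The largest ratios belonged to mitochondrial proteins. Endog, a mitochondrial nuclease, stood at 42.2 CPM in Car1-GFP cells and 7.35 CPM in the whole marrow (log2 2.52). Htra2 (2.44) and Diablo (2.32), which antagonise caspase inhibitors after release, the executioner caspase Casp6 (1.80) and the tumour suppressor Trp53 (1.72) followed. Bik, a BH3-only gene, had 84 UMIs in the Car1-GFP library and 0 in the marrow library, at least 5.43-fold higher. The lowest were the BH3-only genes Pmaip1 (log2 -5.51) and Bmf (-5.21), the death receptor Fas (-4.10), the caspase inhibitor Birc3 (-3.24) and the TNF receptor Tnfrsf1a (-2.90). These directions held under both other scalings.

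Along the globin axis 40 of the 55 passed the minimum, with 1 at least 2-fold higher and 4 lower in group 10 than in group 1, beside the 7.19% and 13.1% of all genes, and a median log2 ratio of -0.20. Bik was higher, at 4.80 CPM (17 UMIs) in group 10 and 1.27 CPM (5 UMIs) in group 1 (log2 1.92, interval 0.42 to 3.72). Casp6 (0.99), Foxo3, a transcription factor that acts on Bcl2l11 (0.79), Casp9 (0.74) and Bcl2l13 (0.51) had the next ratios and stayed within 2-fold. Stat3 was the lowest, at 2.26 CPM in group 10 and 13.9 CPM in group 1 (log2 -2.63). Tnfrsf1a (-1.88), Bnip3 (-1.46) and Endog (-1.26) were also lower. Endog was thus higher in the Car1-GFP library than in the marrow library and lower in its most globin-rich cells.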

How the data were processed

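Droplet-based 3′ single-cell RNA-seq (10x Chromium v2) was made from 2 pools of 3 mice, with 10000 cells loaded per library. The deposited values are raw UMI counts per gene and cell; Cell Ranger 2.1, Seurat 2 and the mm10 build are named in the submitters' processing notes, and no normalization is recorded. Cells with at least 500 UMIs and under 10% mitochondrial UMIs were kept. Scrublet doublets were removed from the marrow library (171 cells), and not from the Car1-GFP library, where the caller marked 9 cells (0.375%). Cells were clustered with scanpy 1.11.5 (2000 variable genes, 30 components, 15 neighbours, Leiden resolution 1) without the 65 apoptosis genes and named from fixed markers, at least 3 of which had to be raised.

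Counts were summed over cells and divided by the summed total, without globin transcripts in every comparison along globin share. With 1 library per group no test was run. Intervals are exact Poisson (levels) or exact binomial (ratios, shares) at 95% and cover counting error only; a count of 0 has a floor of 3 counts. A gene was called at 2-fold where its UMIs on the 2 sides summed to at least 20. The ratio and call were tested on simulated data. edgeR 4.0.16 TMM and DESeq2 1.42.0 size factors served as other scalings (R 4.3.3).

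All members are named. Of the other apoptosis genes, the 5 highest and 5 lowest log2 ratios in the library and the globin comparison are named, except 1 that is not reported here, and for each member with at least 200 marrow UMIs the 3 most similar genes. Bik, at 0 UMIs in marrow, has no finite ratio and is named besides. The members and lists were chosen with earlier results of these data known. Genes that lead clusters, gate genes and S100a8 were named after their values were seen.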

Additional observations from a re-analysis of the deposited data

How the results depend on the processing

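No called value changed direction under any alternative. Of 609 single log2 values, 494 moved by less than their counting interval and 33 changed sign, none of them 2-fold or more in the values reported. Between the libraries these were Bnip3 and Tnfrsf10b, both -0.37 as reported and 0.02 under TMM and DESeq2 scaling, and along globin share they included Mcl1, at -0.13 and 0.67 over fixed ranges. No paired analysis was possible because each group is 1 library. In the comparison of Car1-GFP with marrow, 2 members were at least 2-fold higher under edgeR TMM and 2 under DESeq2 size factors, against 0. Over marrow classes, 11 in place of 23 member-class pairs were lower once the interval had to lie away from no difference, a rule added after seeing the data. Along globin share in Car1-GFP cells, 1 in place of 2 members was higher with 5 groups, with fixed ranges, and without cells of 10% or more globin, the last added after seeing the data; 0 in place of 1 was lower within erythroid-named clusters, where Bcl2 had too few UMIs. Of other apoptosis genes along globin share, 2 in place of 1 were higher with 5 groups. In marrow erythroid cells, 1 member was higher and 0 lower with 2 groups and with at least 1000 UMIs per cell, against 0 and 1, and 0 were lower under the interval rule. At like globin share, 3 in place of 5 pairs were lower under TMM and under the interval rule, and 1 in place of 6 was higher under the interval rule. No cluster carried the stem name at resolution 2, nor the stem or plasmacytoid name with at least 1000 UMIs, so their values are not given there. In both settings a cluster led by Pf4 stayed unnamed, with megakaryocyte as its best class. It held 339 cells at resolution 2 and 262 cells with at least 1000 UMIs. The cause of these moves was not tested. Shallow marrow cells, at a median of 1031 UMIs, limit the classes and the erythroid contrasts.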
